A study of Mus musculus with 4 samples.

Results

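Natural killer (NK) cells were taken from single-cell transcriptomes of mouse mammary tumours by their own transcripts. A cell counted as NK when it held at least 2 UMIs (unique molecular identifiers, 1 per captured transcript) of Ncr1, Klrb1c and Klre1 together, no UMI of Cd3d, Cd3e or Cd3g, at most 1 UMI of Csf1r and Adgre1, and fewer than 2 UMIs of the cycling genes Mki67 and Top2a. The members were thus chosen by measured UMIs of these genes, which are not findings here. The rule was applied to 26435 cells that had 200 or more detected genes and mitochondrial UMIs below 20%, and 499 met it. The tumours were MT4788 mammary tumours grown in FVB mice of wild-type genotype and collected on day 4, and leukocytes were enriched with beads against CD45. The 4 libraries, 1 per treatment, form a 2 by 2 layout: poly I:C with phenformin (the combination), phenformin with saline, poly I:C with PBS, and saline with PBS (control). Poly I:C mimics the double-stranded RNA of viruses and triggers Toll-like receptor 3 and RNA sensors of the cytosol. Phenformin belongs to the biguanides, drugs that slow mitochondrial respiration at complex I. The rule gave 126 NK cells in the combination, 98 with phenformin, 109 with poly I:C and 166 in control.

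NK cells are innate lymphocytes that kill stressed, infected or transformed cells without prior sensitisation. They release perforin, which opens the target membrane, and granzymes, proteases that start cell death, and they secrete interferon-gamma and chemokines. Each cell weighs signals from activating receptors against inhibitory ones that bind MHC class I, among them the Ly49 receptors of the mouse, which individual NK cells express in differing sets. Type I interferon, which double-stranded RNA induces in many cells, and interleukins 12, 15 and 18 are classical NK stimulants.

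The libraries held 59071838 to 77488625 UMIs in 6539 to 9303 barcodes, and 94 barcodes occurred in more than 1 library, none of them an NK cell. NK cells held 605072, 422006, 366345 and 709180 UMIs in the combination, with phenformin, with poly I:C and in control, with medians of 3917, 4052, 3007 and 3714 UMIs per cell. With 1 library per treatment there was no replicate and no test between treatments was possible, so the libraries are described next to each other, and all 95% intervals cover counting error only. Among the NK cells, 21 also carried 5 or more UMIs of genes that define another cell type, 10 or more of macrophages or 100 or more of class II genes. These mixed cells numbered 7, 4, 5 and 5 in the combination, with phenformin, with poly I:C and in control, but held 18.5%, 6.59%, 8.79% and 13.6% of the NK UMIs. In the combination 3 of them held 784 of the 797 epithelial UMIs (Epcam and keratins 8 and 18 among them), and control had 3 with dendritic genes and 1 with epithelial genes. S100a8 and S100a9, alarmins of neutrophils, came mainly from a single cell in 3 of the libraries, with 198 of 202 S100a9 UMIs in the combination, 147 of 151 with poly I:C and 218 of 220 in control. Values without the mixed cells therefore stand beside the results they bear on.

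Eomes and Gzma, which the rule did not use, fitted the label. Eomes, a transcription factor of NK cells, was found in 70.6% of combination, 73.5% of phenformin, 55.96% of poly I:C and 71.7% of control NK cells, and in at most 0.99% of B cells of any library (2 or more UMIs of Cd79a, Cd79b and Ms4a1), whose median depth was 2648, 5246, 7948 and 4510 UMIs. Gzma, the gene of granzyme A, was found in 76.98%, 79.6%, 71.6% and 78.3% of NK cells, and in at most 3.75% of B cells. Of CD8 T cells, 22.5% to 27.6% had an Eomes UMI and 2.66% to 6.31% a Gzma UMI. Itga1 and Cxcr6, marks of type 1 innate lymphoid cells, were detected in few cells. Itga1 was found in 1 of 126, 0 of 98, 1 of 109 and 2 of 166 cells, where 0 of 98 allows a share of cells with a UMI of up to 3.06%. Cxcr6 was found in 3.97% to 6.02%, against 67.2% to 79.9% of CD8 T cells. Il7r, a further such mark, was found in more, with 11.9%, 16.3%, 21.1% and 12.65% of the NK cells. Of 6 listed B cell markers, 3 were found in the combination with 8 UMIs (13.2 CPM, and 2.03 CPM without mixed cells), and 1 with poly I:C with 1 UMI, while all were at 0 with phenformin and in control. Beside them, the macrophage or monocyte list, with 13 or 14 of its 14 members present, summed to 820, 810, 1460 and 797 CPM in the combination, with phenformin, with poly I:C and in control. The dendritic list summed to 1036, 1666, 2539 and 3260 CPM, and to 831, 1027, 979 and 934 CPM without mixed cells. The T cell list, which includes the Cd3 genes of the rule, summed to 74.4, 128, 202 and 193 CPM. CPM is UMIs per 1000000 UMIs of the NK cells of a library.

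All 3 genes of the rule were found together in a minority of cells at this depth: 160 of the 499 cells (32.1%) carried 1 of them, 264 (52.9%) carried 2 and 75 (15.0%) all 3. The share with 1 was 33.3% in the combination, 22.45% with phenformin, 42.2% with poly I:C and 30.1% in control. The share with all 3 was 10.3%, 24.5%, 9.17% and 16.9%. Cells just inside the threshold, with a sum of 2 UMIs, numbered 42, 36, 49 and 56 in the combination, with phenformin, with poly I:C and in control, and 73.8%, 72.2%, 53.1% and 66.1% of them had an Eomes UMI. Cells just outside it, with a sum of 1, numbered 78, 61, 82 and 104, and 60.3%, 54.1%, 57.3% and 59.6% of them had an Eomes UMI, so the rule leaves out cells that resemble its members. Of cells with at least 2 UMIs of the NK genes, 378 of 524, 155 of 264, 368 of 494 and 186 of 376 were set aside for a Cd3 UMI.

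Under the rule, NK cells made up a smaller share of the recovered cells in all 3 treated libraries than in control. They were 1.52% (95% exact binomial interval 1.27 to 1.81) in the combination, 1.80% (1.46 to 2.19) with phenformin and 1.65% (1.35 to 1.98) with poly I:C, against 2.72% (2.33 to 3.16) in control. None of the treated intervals overlapped that of control, while the treated libraries overlapped each other. With every cell thinned to 2000 UMIs the shares were 1.08%, 1.16%, 1.12% and 1.84%, with control again the highest, but the thinned interval of phenformin (0.874 to 1.497) then met that of control (1.497 to 2.24). Per 100 CD8 T cells (2 or more Cd3 UMIs and 1 or more of Cd8a and Cd8b1), of which there were 941, 439, 715 and 444, there were 13.4, 22.3, 15.2 and 37.4 NK cells. The CD45 beads set the denominator in part, so these are shares of the recovered cells and not of the tumour. Before the other limits, cells with at least 2 NK gene UMIs were 524 of 8268 in the combination and 264 of 5453 with phenformin. They were 494 of 6619 with poly I:C and 376 of 6095 in control, where this share was not the highest. The part of them set aside for a Cd3 UMI was smallest in control.

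**Figure D1:**
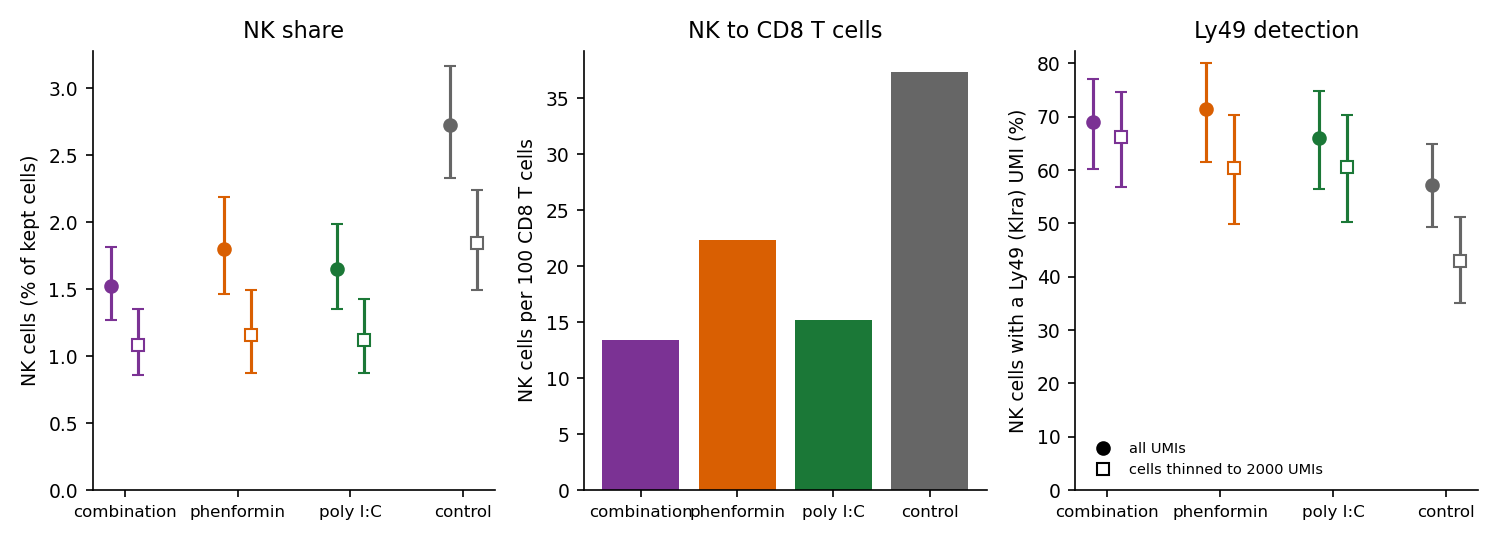
NK cells as a percentage of kept cells (left), NK cells per 100 CD8 T cells (middle) and the percentage of NK cells with a UMI of any of 6 Ly49 genes (right), in each library; filled circles use all UMIs, open squares cells thinned to 2000 UMIs, and bars are exact 95% binomial intervals. The control library has the highest NK share (2.72%) and the lowest Ly49 percentage (57.2%).

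Differences of at least 1.5-fold were counted over genes with at least 50 CPM and 30 UMIs in the higher library of a pair, on the log2 scale with 5 CPM added to both sides. Against control, the combination had 285 of 3406 compared genes higher (8.37%) and 664 lower (19.5%). Phenformin had 69 of 3002 higher (2.3%) and 281 lower (9.36%), and poly I:C had 103 of 2915 higher (3.53%) and 555 lower (19.0%). These 3 comparisons share the control library. Against phenformin, the combination had 342 of 2812 genes higher (12.2%) and 357 lower (12.7%), and against poly I:C 356 of 2590 higher (13.7%) and 177 lower (6.83%). The split depends on the scaling: with TMM factors the genes apart in the combination against control were 470 higher and 399 lower, in poly I:C against control 189 and 332, and in the combination against phenformin 471 and 252. TMM moved the median log2 ratio of all compared genes from -0.17 to 0.01 in the combination against control and from -0.20 to -0.07 in poly I:C against control, and list medians are given beside that of all genes.

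The genes at the ends of the ranking came largely from mixed cells. Wfdc2, an epithelial secreted protein, had 638 UMIs in 4 combination cells and 2.03 CPM without the mixed cells, against 1054 CPM with them. Krt8, Krt18 and Epcam, also epithelial, were among the 8 highest genes of the combination against both single treatments. Klk1, a kallikrein protease, had all 60 of its control UMIs in a single cell, and Ptgs2, the gene of cyclooxygenase 2, all 41. The number of NK cells behind a gene is therefore given where it is small.

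Ly49 receptors were higher in every treated library than in control. The Ly49 proteins, encoded by the Klra genes, are mostly inhibitory receptors for MHC class I, with Klra4 and Klra8 products (Ly49D and Ly49H) as activating members that signal through DAP12. Klra4 had 339 CPM in the combination, 396 with phenformin and 401 with poly I:C, against 231 in control. Klra7 had 222 CPM in the combination, 235 with phenformin and 158 with poly I:C, against 126 in control, and Klra1 had 92.5 CPM in the combination, 71.1 with phenformin and 117 with poly I:C, against 53.6 in control. Klra8, at 54.5, 52.1, 46.4 and 18.3 CPM in the combination, with phenformin, with poly I:C and in control, rested on 33, 22, 17 and 13 UMIs, and Klra3, at 31.4, 42.6, 32.8 and 5.64 CPM, on 19, 18, 12 and 4. The control library was the lowest for each of these genes and for Klra9 (79.3, 68.7, 65.5 and 50.8 CPM), with overlapping intervals for the rarer ones.

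Against control, 4 of the 5 compared Ly49 genes were at least 1.5-fold higher in the combination (8.37% of all compared genes were), with a median log2 ratio of 0.74 beside -0.17 over all genes, and 0.77 without mixed cells. The ratio of Klra7 was 1.76 (1.34 to 2.33) in the combination, 1.87 (1.39 to 2.52) with phenformin and 1.26 (0.89 to 1.78) with poly I:C. For Klra4 these ratios were 1.47 (1.19 to 1.81), 1.71 (1.37 to 2.14) and 1.74 (1.38 to 2.18), so 2 of 3 compared Ly49 genes passed 1.5-fold with phenformin (2.3% of all genes) and 2 of 3, Klra1 and Klra4, with poly I:C (3.53%). Against either single treatment, none of 5 compared Ly49 genes passed 1.5-fold in the combination, where 12.2% of all genes were higher than with phenformin and 13.7% higher than with poly I:C.

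Ly49 transcripts were also detected in more cells of the treated libraries. In 87 of 126 combination, 70 of 98 phenformin, 72 of 109 poly I:C and 95 of 166 control NK cells at least 1 of the 6 Klra genes was found. These are 69.0% (60.2 to 76.98), 71.4% (61.4 to 80.1), 66.1% (56.4 to 74.8) and 57.2% (49.3 to 64.9). At 2000 UMIs per cell they became 66.1% (56.8 to 74.6), 60.4% (49.9 to 70.2), 60.6% (50.3 to 70.3) and 43.0% (35.1 to 51.1), where only the combination's interval lay wholly above that of control. Cells with 2 or more Klra genes were 33.1%, 34.4%, 35.4% and 16.0% at that depth, and up to 6 of the genes were found in a single cell. B cells had a Klra4, Klra7 or Klra8 UMI in at most 0.543% of cells. The Klra genes are near-identical copies and 3' reads may be split among them, and reads of FVB mice were counted on a reference of another strain. How this affects single Klra genes was not tested.

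All 17 named Klr genes lie within 122270596 to 130386874 on chromosome 6 (GRCm38, GENCODE vM21), a span that holds the NK gene complex, and Klra1 (chromosome 6, 130363917 to 130386874) to Klra4 (130043731 to 130067271) mark the Ly49 part of it. Of their neighbours, Klrd1 (CD94) had 449.5, 374, 338 and 362 CPM, Klrc1 (NKG2A), which pairs with it and inhibits, 129, 135, 175 and 151 CPM, and Klrk1 (NKG2D), an activating receptor for stress ligands, 395, 422, 456 and 402 CPM in the combination, with phenformin, with poly I:C and in control, all within 1.5-fold of control. Klrb1b, an inhibitory receptor for the ligand Clr-b, went the other way. Klrb1b had 157 CPM in the combination, 348 with phenformin and 259 with poly I:C, against 369 in control, a ratio to control of 0.425 (0.333 to 0.539) in the combination, 0.943 (0.765 to 1.16) with phenformin and 0.702 (0.549 to 0.891) with poly I:C. Its neighbour Klrb1c (NK1.1), a gene of the rule and so given as a description, had 136, 242, 224 and 237 CPM. Klrg1, an inhibitory receptor of mature NK cells that binds cadherins, had 89.2, 45.02, 27.3 and 47.9 CPM, in 30 of 126, 13 of 98, 8 of 109 and 26 of 166 cells.

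Over 17 compared receptors outside the Ly49 family, 2 were at least 1.5-fold higher in the combination than in control (Klrg1 and Tnfrsf18) and 3 lower (Klrb1b, Crtam and Cd69), near the 8.37% and 19.5% of all genes, with a median of -0.04. Tnfrsf18 (GITR), a costimulatory receptor of the TNF receptor family, had 311, 197, 314 and 204 CPM. Cd69, an early activation marker, was lowest in the combination at 77.7, 97.2, 145 and 172 CPM, and Crtam, which binds nectin-like proteins, was higher in control than in any treated library at 29.8, 33.2, 13.7 and 64.9 CPM. Ncr1 had 245 CPM in the combination, 367 with phenformin and 341 with poly I:C, against 255 in control, and as a gene of the rule it is given as a description.

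Among adaptors and signalling proteins, Sh2d1a was at least 1.5-fold higher in all 3 treated libraries than in control, and Fcer1g in the combination. Sh2d1a encodes SAP, the adaptor of SLAM family receptors. Sh2d1a had 155 CPM in the combination, 126 with phenformin and 123 with poly I:C, against 67.7 in control, with ratios to control of 2.29 (1.6 to 3.32), 1.86 (1.23 to 2.8) and 1.81 (1.18 to 2.78). Fcer1g, the signalling chain of Fc and natural cytotoxicity receptors, had 838, 806, 663 and 544 CPM. The kinase Fyn, which acts with SAP, was lower in both poly I:C libraries: Fyn had 144 CPM in the combination, 244 with phenformin and 136 with poly I:C, against 346 in control. Vav1, a guanine nucleotide exchange factor downstream of activating receptors, had 4 UMIs with poly I:C (10.9 CPM), a ratio to control of 0.184 (0.048 to 0.508), and 38.01, 66.3 and 59.2 CPM in the combination, with phenformin and in control. With poly I:C 5 of 12 compared genes of this list were lower than in control (19.0% of all genes), with phenformin none of 12 (9.36%) and in the combination 4 of 14 (19.5%).

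The main granzymes and perforin were at similar levels in all libraries. Gzma had 4051 CPM in the combination, 4559 with phenformin and 3510 with poly I:C, against 3676 in control, and Gzmb had 839.6 CPM in the combination, 936 with phenformin and 1002 with poly I:C, against 869 in control. Prf1 had 321 CPM in the combination, 351 with phenformin and 303 with poly I:C, against 405 in control, all within 1.5-fold of each other. Of 13 compared cytotoxic genes, the higher ones were Gzmc and Cst7 in the combination and Gzmc alone with phenformin and with poly I:C, where 8.37%, 2.3% and 3.53% of all genes were higher. None was at least 1.5-fold lower than in control, where 19.5%, 9.36% and 19.0% of all genes were, but 1 was with poly I:C without mixed cells and 1 in the combination without the top cell of each gene. Cst7 encodes cystatin F, an inhibitor of the proteases that activate granzymes, and had 162, 97.2, 115 and 103 CPM. Serpinb9, which shields the killer cell from granzyme B, had 754, 1128, 1059 and 1129 CPM and a ratio to control of 0.667 (0.594 to 0.75) in the combination.

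Gzmc was set by a handful of cells. Granzyme C is a granzyme of strongly stimulated killer cells. Gzmc had 326 CPM in the combination, 597 with phenformin and 166 with poly I:C, against 62.04 in control, a ratio of 9.62 (6.96 to 13.6) for phenformin by counting error. The UMIs lay in 12 of 126, 6 of 98, 9 of 109 and 9 of 166 cells, or 9.52%, 6.12%, 8.26% and 5.42%, with overlapping intervals. A single phenformin cell held 147 of 252 UMIs, a combination cell 66 of 197, a poly I:C cell 32 of 61 and a control cell 13 of 44. The share of NK cells with Gzmc therefore did not separate the libraries, although the sums differed, and B cells had no Gzmc UMI.

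**Figure D2:**
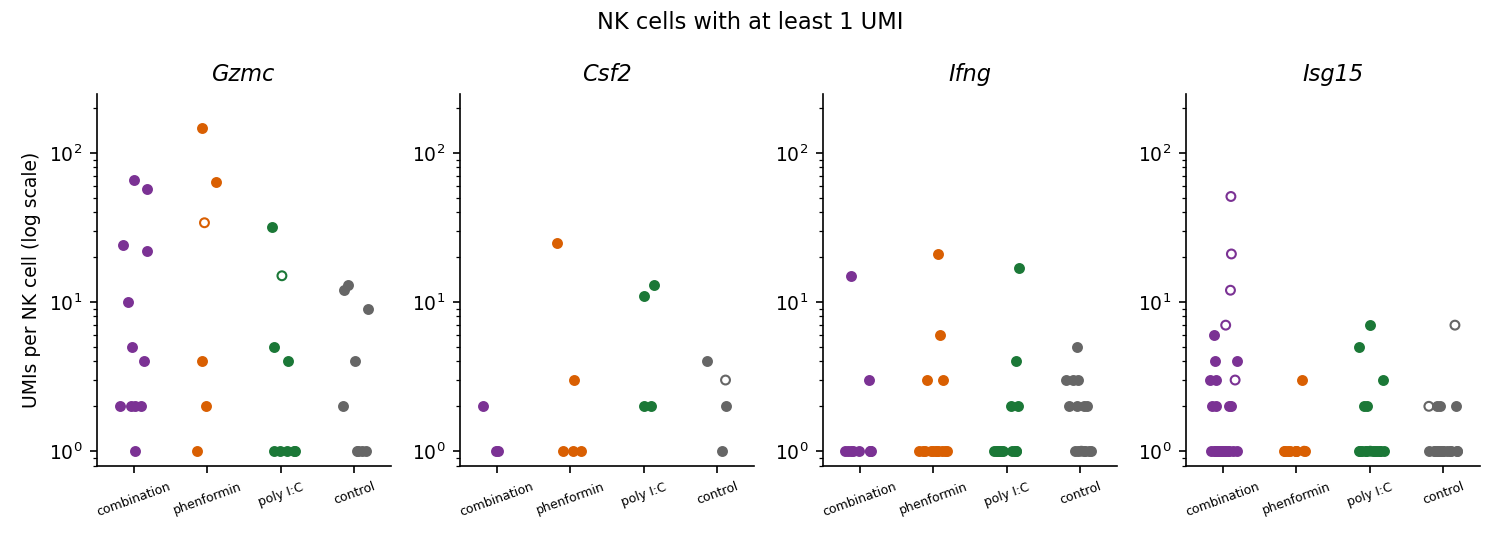
UMIs of Gzmc, Csf2, Ifng and Isg15 in each NK cell with at least 1 UMI (log scale), by library; open circles are mixed cells. In most libraries a few cells stand far above the rest: the highest Gzmc cell has 147 UMIs (phenformin), and the highest Isg15 cell, with 51, is a mixed cell of the combination.

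Ifng and Csf2 also lay in few cells. Ifng had 42.97 CPM in the combination, 104 with phenformin and 98.3 with poly I:C, against 40.9 in control, in 10, 15, 15 and 15 cells, with 15 of 26, 21 of 44, 17 of 36 and 5 of 29 UMIs in a single cell. Csf2, the gene of the growth factor GM-CSF, had 6.61, 73.5, 76.4 and 14.1 CPM in 3, 5, 4 and 4 cells. The chemokine genes were carried by more cells. Xcl1, which attracts cross-presenting dendritic cells, was highest in the combination: Xcl1 had 598 CPM in the combination, 386 with phenformin and 347 with poly I:C, against 331 in control, a ratio of 1.8 (1.53 to 2.14) to control and 1.73 (1.41 to 2.13) to poly I:C, although the shares of cells with a UMI were 29.4%, 33.7%, 22.02% and 28.3% and 99 of 362 combination UMIs were in a single cell.

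The summed level of Ccl5, a chemokine of killer lymphocytes, was higher in all treated libraries than in control, past 1.5-fold with poly I:C alone. Ccl5 had 7176 CPM in the combination, 8114 with phenformin and 10034 with poly I:C, against 5918 in control, with ratios to control of 1.21 (1.16 to 1.26), 1.37 (1.31 to 1.44) and 1.7 (1.62 to 1.77). The median per NK cell, not scaled for depth, was 7, 25.5, 13 and 14 UMIs, above control with phenformin alone. Ccl5 was found in 78.6%, 89.8%, 79.8% and 84.9% of NK cells, while 37.5%, 13.9%, 28.4% and 7.5% of B cells had a UMI. The B cell share, like the summed NK level, was lowest in control, and its part in the result was not tested. Ccl3 and Ccl4, inflammatory chemokines, were lower in the combination than in control: Ccl4 had 175, 246, 232 and 307 CPM and Ccl3 23.1, 42.6, 73.7 and 59.2 CPM, in 15, 19, 23 and 31 and in 11, 8, 11 and 17 cells. The direction of Ccl4 turned, to a log2 ratio of 0.07, when cells with 3 or more UMIs of 12 genes of other cell types were left out. Ltb, the gene of lymphotoxin beta, had 529, 334, 478 and 344 CPM. Of 8 compared cytokine and chemokine genes, 3 were higher (Xcl1, Ltb and Areg) and 3 lower in the combination than in control (8.37% and 19.5% of all genes), and 2 and 2 without mixed cells. The 35 Areg UMIs of the combination lay in 4 cells, and without mixed cells Areg was at 2.03 CPM there.

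Il18rap and Il18r1 encode the chains of the receptor for interleukin 18, which with interleukin 12 drives interferon-gamma. Il18rap had 190.1 CPM in the combination, 540.3 with phenformin and 259 with poly I:C, against 471 in control, ratios to control of 0.404 (0.324 to 0.5), 1.15 (0.965 to 1.36) and 0.551 (0.434 to 0.694). Il18r1 had 89.2 CPM in the combination, 211 with phenformin and 142 with poly I:C, against 182 in control, a ratio of 0.491 (0.35 to 0.679) for the combination. Stat4, the transducer of interleukin 12 signals, was near control in both single treatments and lower in the combination: Stat4 had 127 CPM in the combination, 237 with phenformin and 240.2 with poly I:C, against 216 in control, a ratio of 0.59 (0.443 to 0.781) to control, 0.537 (0.394 to 0.73) to phenformin and 0.53 (0.385 to 0.728) to poly I:C.

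Il7r, the interleukin 7 receptor, was highest with poly I:C. Il7r had 61.1 CPM in the combination, 123 with phenformin and 216 with poly I:C, against 90.2 in control, in 15 of 126, 16 of 98, 23 of 109 and 21 of 166 cells. B cells had Il7r UMIs in 5.43%, 14.8%, 3.7% and 15.0% of cells, near the NK shares in 2 of the libraries at unequal depth. In thinned cells the shares were 7.63%, 11.46%, 20.2% and 8.97% of NK cells, and 5.77%, 5.10%, 2.67% and 8.82% of B cells. The B cell share was then near the NK share in control, and with phenformin it was below it. Over the list of cytokine receptors and their transducers, 4 of 17 compared genes were lower in the combination than in control, near the 19.5% of all genes, and none higher, with a median of -0.41 beside -0.17 over all genes (-0.35 without mixed cells). With phenformin none of 15 was lower or higher, and with poly I:C 1 of 16 was higher (Il7r) and 1 lower (Il18rap). In CD8 T cells of the same libraries the median of the combination against control was -0.42, beside -0.03 over all genes. There 8 of 20 compared genes were lower, where 163 of 3123 of all genes were.

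Many transcription factors of lymphocyte identity were lower in the combination. Of 22 compared, 11 were at least 1.5-fold lower than in control (19.5% of all genes were) and none higher, with a median of -0.60 beside -0.17 over all genes, -0.55 without mixed cells and -0.46 with TMM factors. With phenformin 2 of 22 were lower and 1 higher (median -0.15), and with poly I:C 5 of 22 were lower (median -0.29), both near the 9.36% and 19.0% of all genes that were lower. Klf2 restrains activation and controls lymphocyte exit from tissue. Klf2 had 82.6 CPM in the combination, 275 with phenformin and 139 with poly I:C, against 259.5 in control, ratios to control of 0.319 (0.228 to 0.438), 1.06 (0.832 to 1.34) and 0.537 (0.386 to 0.735). It was found in 28 of 126, 44 of 98, 29 of 109 and 62 of 166 NK cells, and in 19.6%, 35.6%, 19.8% and 42.5% of B cells, which express it.

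Ets1, needed for NK development, was found in most cells of every library. Ets1 had 554 CPM in the combination, 872 with phenformin and 868 with poly I:C, against 1007 in control, a ratio of 0.55 (0.481 to 0.627) to control, 0.635 (0.546 to 0.738) to phenformin and 0.638 (0.545 to 0.746) to poly I:C. Both single treatments were near control at 0.866 (0.762 to 0.984) and 0.862 (0.753 to 0.985). Ikzf1, the gene of the lymphoid factor Ikaros, had 74.4, 137, 128 and 166 CPM, and Nfil3, which acts early in the NK lineage, 127, 197, 191 and 217 CPM. Prdm1 (Blimp-1), a factor of terminal maturation, rested on few UMIs at 14.9, 54.5, 30.03 and 70.5 CPM, and Tcf7, a factor of immature and memory lymphocytes, had 76.02, 99.5, 106 and 161 CPM. Eomes had 436 CPM in the combination, 559 with phenformin and 388 with poly I:C, against 559.8 in control, and Tbx21 (T-bet), the partner of Eomes in NK maturation, had 47.9, 68.7, 60.05 and 77.5 CPM.

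**Figure D3:**
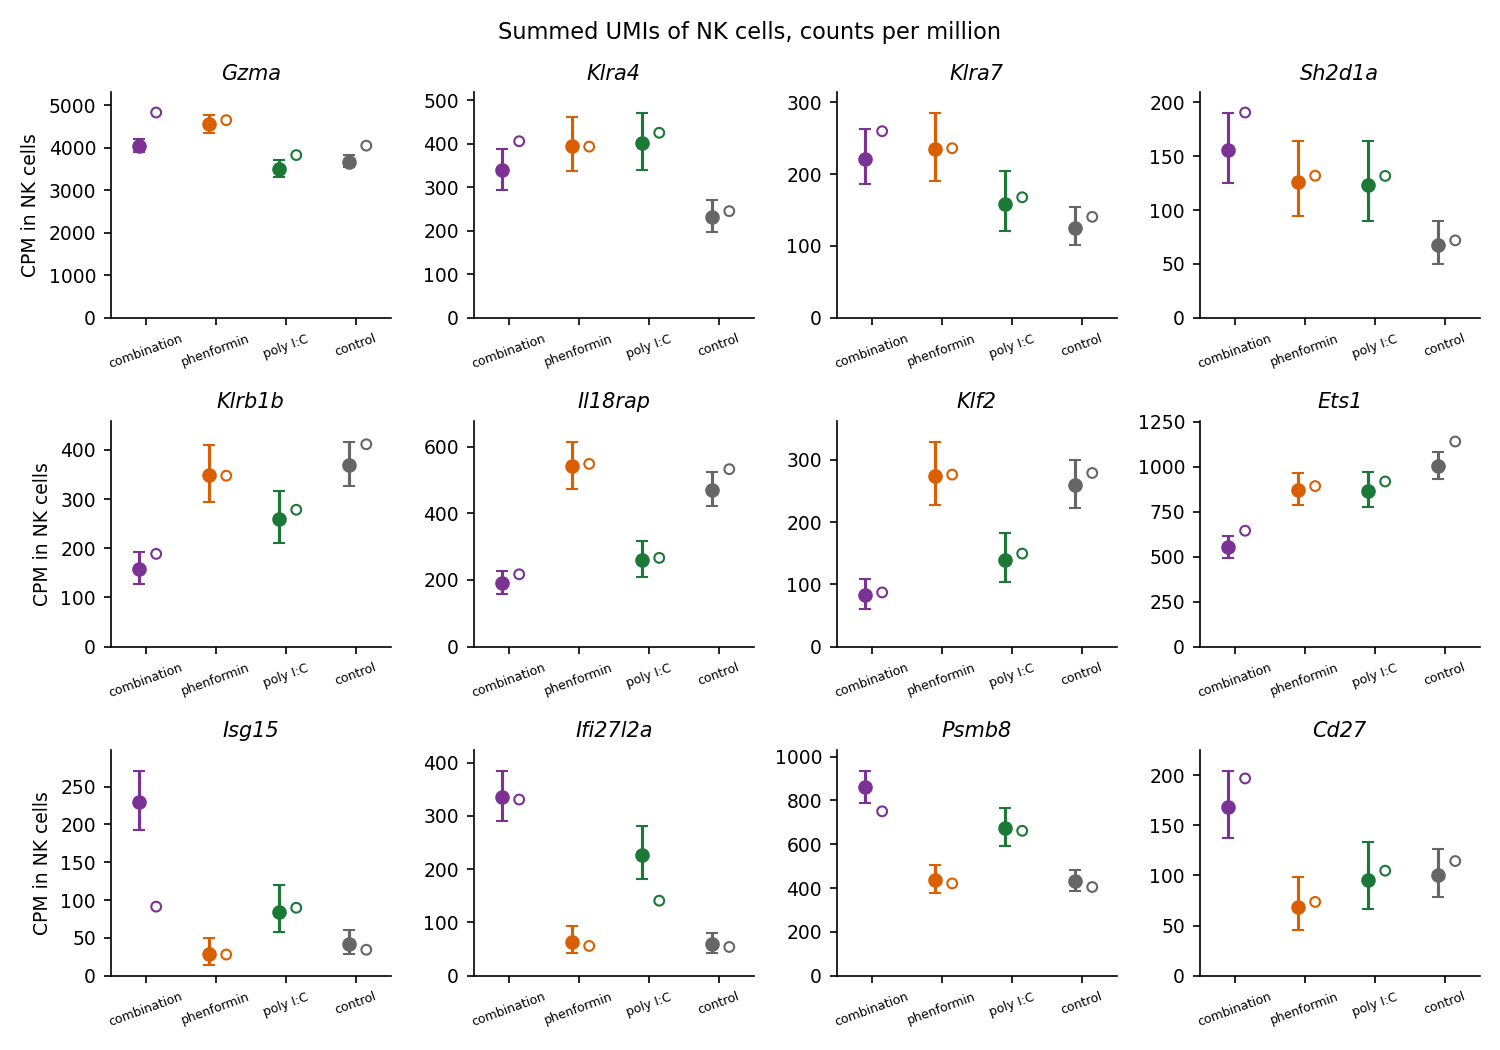
CPM of 12 genes in the summed NK cells of each library (filled circles, bars are exact 95% Poisson intervals), with the value without mixed cells as an open circle. Klra4, Klra7 and Sh2d1a are lowest in control, Klrb1b, Il18rap, Klf2 and Ets1 lowest in the combination, and Isg15 is high in the combination (229.7 CPM) mainly through mixed cells.

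Genes of NK maturation went both ways. Spn (CD43), which rises as NK cells mature, was lower in both poly I:C libraries: Spn had 150.4 CPM in the combination, 310.4 with phenformin and 156 with poly I:C, against 254 in control. Cma1, a protease found in mature NK cells, had 57.8, 102, 65.5 and 109 CPM. Cd27, a receptor of less mature NK cells, was the reverse: Cd27 had 169 CPM in the combination, 68.7 with phenformin and 95.5 with poly I:C, against 100.1 in control, a ratio of 1.68 (1.23 to 2.31) to control, 2.45 (1.61 to 3.85) to phenformin and 1.76 (1.19 to 2.67) to poly I:C. It was found in 59 of 126, 18 of 98, 26 of 109 and 45 of 166 cells, and at 2000 UMIs per cell in 24.6%, 10.4%, 19.2% and 16.03%, with at most 1.98% of B cells. S1pr5, a receptor for exit of mature NK cells, was found in 0 of 126 combination cells, which allows a share of cells with a UMI of up to 2.38%, and in 4 of 98, 1 of 109 and 10 of 166 cells with phenformin, with poly I:C and in control.

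Of 10 compared maturation genes, 5 were lower in the combination than in control (19.5% of all genes were) and 1 higher (Klrg1, 8.37%), with a median of -0.60, and 4 were lower with a median of -0.35 without mixed cells. With poly I:C 4 of 9 were lower (19.0% of all genes, median -0.52) and with phenformin none of 9 (9.36%), with Zeb2 higher (median 0.00). Among trafficking genes 5 of 13 were lower in the combination than in control (19.5% of all genes were), with a median of -0.46 beside -0.17, and 4 without mixed cells with a median of -0.34. Of these, Cxcr4, the receptor for marrow retention, had 423, 639.8, 568 and 725 CPM, Itgal and Itgb2, the chains of the adhesion integrin LFA-1, 336, 431, 300.3 and 506 CPM and 167, 275, 199 and 269 CPM, and Cd44 89.2, 161, 161 and 193 CPM. Rora, a factor of tissue-resident innate lymphocytes, had 172, 419, 338 and 314 CPM.

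NF-kB relays inflammatory and receptor signals. Of 14 compared members, targets and feedback inhibitors of the pathway, 8 were lower in the combination than in control (19.5% of all genes were) and none higher, with a median of -0.70 beside -0.17 over all genes. Without mixed cells 7 were lower, with a median of -0.47. Nfkbiz, an inducible nuclear regulator of the pathway, had 80.98, 213, 139 and 265 CPM, and Tnfaip3 (A20), a feedback inhibitor, 349, 630.3, 524 and 625 CPM. Birc3, an inhibitor of apoptosis, had 74.4, 139.8, 112 and 175 CPM and Pim1, a survival kinase, 145, 327, 308 and 302 CPM. Nfkbia, the gene of the inhibitor IkB-alpha, was highest with poly I:C at 367, 495, 644 and 393 CPM. Against control, phenformin had none of 14 lower or higher, and poly I:C had 3 of 14 lower (Nfkbiz, Birc3 and Icam1), near the 19.0% of all genes, and Nfkbia higher. Nfkbia no longer passed 1.5-fold without mixed cells or without its top cell. The median in CD8 T cells was -0.44 for the combination against control, beside -0.03 over all genes.

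Many interferon-induced genes were higher in the combination. Of 21 compared genes of the type I interferon list, 9 were at least 1.5-fold higher than in control (8.37% of all genes were) and 1 lower (Stat2), with a median of 0.50. Without mixed cells 12 were higher and the median was 0.71. Against phenformin 11 of 20 were higher (12.2% of all genes were), with a median of 0.82 beside 0.00 over all genes, and 0.75 without mixed cells. Against poly I:C 10 of 19 were higher (13.7% of all genes were), with a median of 0.62 beside 0.10 over all genes, which came to 7 and 0.30 without mixed cells. Poly I:C alone had 4 of 14 higher than control (3.53% of all genes) and 3 lower (19.0%, median 0.05), which came to 5 and 1 without mixed cells (median 0.22). Phenformin alone had none of 12 higher (2.3% of all genes) and 4 lower (9.36%, median -0.31), and 2 lower without mixed cells (median -0.24).

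Ifi27l2a, a small mitochondrial protein strongly induced by interferon, was higher in both libraries that received poly I:C. Ifi27l2a had 336 CPM in the combination, 63.98 with phenformin and 227 with poly I:C, against 59.2 in control, ratios to control of 5.67 (4.05 to 8.1), 1.08 (0.64 to 1.79) and 3.83 (2.61 to 5.68), and 330.5, 55.8, 141 and 53.9 CPM without mixed cells. It was found in 51 of 126, 16 of 98, 26 of 109 and 28 of 166 NK cells. B cells had it in 66.8%, 64.4%, 83.95% and 62.5% of cells, so NK cells were at or below the share of another lymphocyte and the part of free RNA in their values was not tested.

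Isg15, a ubiquitin-like protein induced by interferon, had its highest level in the combination. Isg15 had 229.7 CPM in the combination, 28.4 with phenformin and 84.6 with poly I:C, against 42.3 in control, and without mixed cells 91.2, 27.9, 89.8 and 34.3 CPM, at which the combination and poly I:C were level. It was found in 24.6%, 10.2%, 15.6% and 12.1% of NK cells and in 17.4%, 14.8%, 20.99% and 18.8% of B cells. At these unequal depths 3 of the 4 NK shares were below those of B cells. In thinned cells the shares were 16.1%, 4.17%, 15.15% and 5.77% of NK cells, and 10.9%, 6.12%, 9.33% and 10.29% of B cells. The NK share was then below that of B cells with phenformin and in control, and above it in both poly I:C libraries. Irf7, which amplifies the interferon response, had 109, 37.9, 68.2 and 47.9 CPM (87.2, 40.6, 62.9 and 37.5 CPM without mixed cells) and a ratio of 2.27 (1.48 to 3.55) in the combination against control. Ifi35, an interferon-induced protein of innate signalling, had 80.98, 45.02, 43.7 and 42.3 CPM, and Samd9l, an antiviral restriction factor, 121, 80.6, 120.1 and 71.9 CPM, equal in both poly I:C libraries. Zbp1, a sensor of Z-form nucleic acid, had 136, 49.8, 62.8 and 67.7 CPM.

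Bst2, which tethers budding viruses, had 178, 45.02, 109 and 179 CPM but 118, 43.1, 105 and 70.2 CPM without mixed cells, as mixed cells held much of it in control, which put the single treatments below control with the mixed cells and poly I:C above it without them. Ly6a (Sca-1), also induced by interferon, behaved alike at 284, 87.7, 183 and 283 CPM, and 269.7, 58.4, 162 and 73.5 CPM without mixed cells, a ratio of 3.67 for the combination against control.

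The promoters of the 9 genes higher in the combination were searched for GAAA, any 2 bases and GAAA again, the core of the interferon-stimulated response element, on both strands of the 250 bases before the transcription start (RefSeq, GRCm38.p6). Among all promoters 936 of 27025 genes (3.46%) held it, and of the type I interferon list 17 of 35 genes found in the table (48.6%). Of the 9 genes higher in the combination, 7 were in the table and 1, Isg15, held a match. Its promoter (chr4:156200819-156201068, minus strand) is shown because it carries 3 overlapping matches, in capitals, which begin 78 bases before the start, and that of Irf7 (chr7:141266425-141266674, minus strand) is shown beside it as one with none.
Isg15: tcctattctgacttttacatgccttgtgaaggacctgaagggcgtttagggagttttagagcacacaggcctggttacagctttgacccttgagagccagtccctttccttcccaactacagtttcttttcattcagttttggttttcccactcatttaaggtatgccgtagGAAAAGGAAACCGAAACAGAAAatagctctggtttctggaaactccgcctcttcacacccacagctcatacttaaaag
Irf7: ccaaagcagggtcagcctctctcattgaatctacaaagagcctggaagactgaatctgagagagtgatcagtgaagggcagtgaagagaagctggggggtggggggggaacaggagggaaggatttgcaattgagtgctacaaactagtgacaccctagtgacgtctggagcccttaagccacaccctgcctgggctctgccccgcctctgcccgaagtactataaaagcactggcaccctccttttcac
A match is a description of the letters, and no match says only that these letters are not in this window.

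A few genes of MHC class I presentation were higher in both poly I:C libraries. H2-Q7, a non-classical class I molecule, had 595, 403, 606 and 364 CPM in the combination, with phenformin, with poly I:C and in control. Psmb8, a subunit of the immunoproteasome that cuts peptides for class I, had 859, 436, 674 and 432 CPM, with ratios to control of 1.99 (1.73 to 2.3), 1.01 (0.837 to 1.22) and 1.56 (1.32 to 1.85). H2-D1 had 7338 CPM in the combination, 5327 with phenformin and 7127 with poly I:C, against 4907 in control. Of 16 compared, 3 were at least 1.5-fold higher than in control in the combination (8.37% of all genes were) and 3 with poly I:C (3.53%), which came to 4 and 2 without mixed cells. None was lower, and the medians were 0.35 and 0.29 beside -0.17 and -0.20 over all genes. With phenformin none of 15 was higher or lower (median 0.01). In CD8 T cells the medians were 0.23 in the combination and 0.20 with poly I:C against control, beside -0.03 and -0.11 over all genes.

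Phenformin acts on complex I, and none of its compared nuclear genes was at least 1.5-fold lower than control in either library that received it, although 1 was in the combination without mixed cells. Of 35 compared with phenformin, 3 were higher than in control (Ndufa2, Ndufa5 and Ndufa12; 2.3% of all genes were) and none lower (9.36%), with a median of 0.10 beside -0.10 over all genes, and in the combination 2 of 36 were higher (8.37% of all genes, median 0.28, 0.16 without mixed cells). Ndufa2 had 223, 275, 172 and 179 CPM and Ndufb9 269, 133, 106 and 156 CPM, both accessory subunits. The 12 compared transcripts of the mitochondrial genome had medians of 0.11 in the combination and 0.10 with phenformin against control, and none passed 1.5-fold.

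Fewer glycolytic genes stood higher in the combination once the mixed cells were left out. Against poly I:C 9 of 15 were at least 1.5-fold higher (13.7% of all genes were), with a median of 0.76, and without mixed cells 4 were, with a median of 0.32. Against phenformin 7 of 15 were higher with them (12.2% of all genes were) and none without them. Against control 4 of 15 were higher (8.37% of all genes were), which came to 2 without mixed cells and 4 without the top cell of each gene. Gapdh, a glycolytic enzyme, had 878, 543, 439.5 and 462 CPM and 645, 512, 413 and 374 CPM without mixed cells, and Ldha, which makes lactate, 574, 329, 289 and 398 CPM and 371, 319.6, 269 and 318 CPM. The glucose transporter gene Slc2a1 had 64.5, 52.1, 32.8 and 80.4 CPM.

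CD8 T cells of the same libraries were used to see which differences were also found in other lymphocytes. For the combination against control, the median of the type I interferon list was 0.28 in CD8 T cells and 0.50 in NK cells, and that of the transcription factors -0.22 and -0.60. Over all compared genes these medians were -0.03 and -0.17. With poly I:C against control the transcription factor median was -0.50 in CD8 T cells and -0.29 in NK cells, beside -0.11 and -0.20 over all genes. Il18rap was lower in both, with a ratio of 0.321 (0.269 to 0.382) in CD8 T cells, and Cd27 was higher in both, with 1.88 (1.67 to 2.13). Klf2 differed in direction: its CD8 T cell levels were 68.5, 44.2, 33.8 and 43.7 CPM in the combination, with phenformin, with poly I:C and in control, a ratio of 1.57 (1.27 to 1.95) for the combination against control, where NK cells had 0.319. Ets1 was at 0.838 (0.801 to 0.876) in CD8 T cells and 0.55 in NK cells. Xcl1 was highest with phenformin in CD8 T cells, at 36.3, 165, 27.2 and 39.02 CPM, and highest in the combination in NK cells. These differences between cell types could not be tested with 1 library per treatment.

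**Figure D4:**
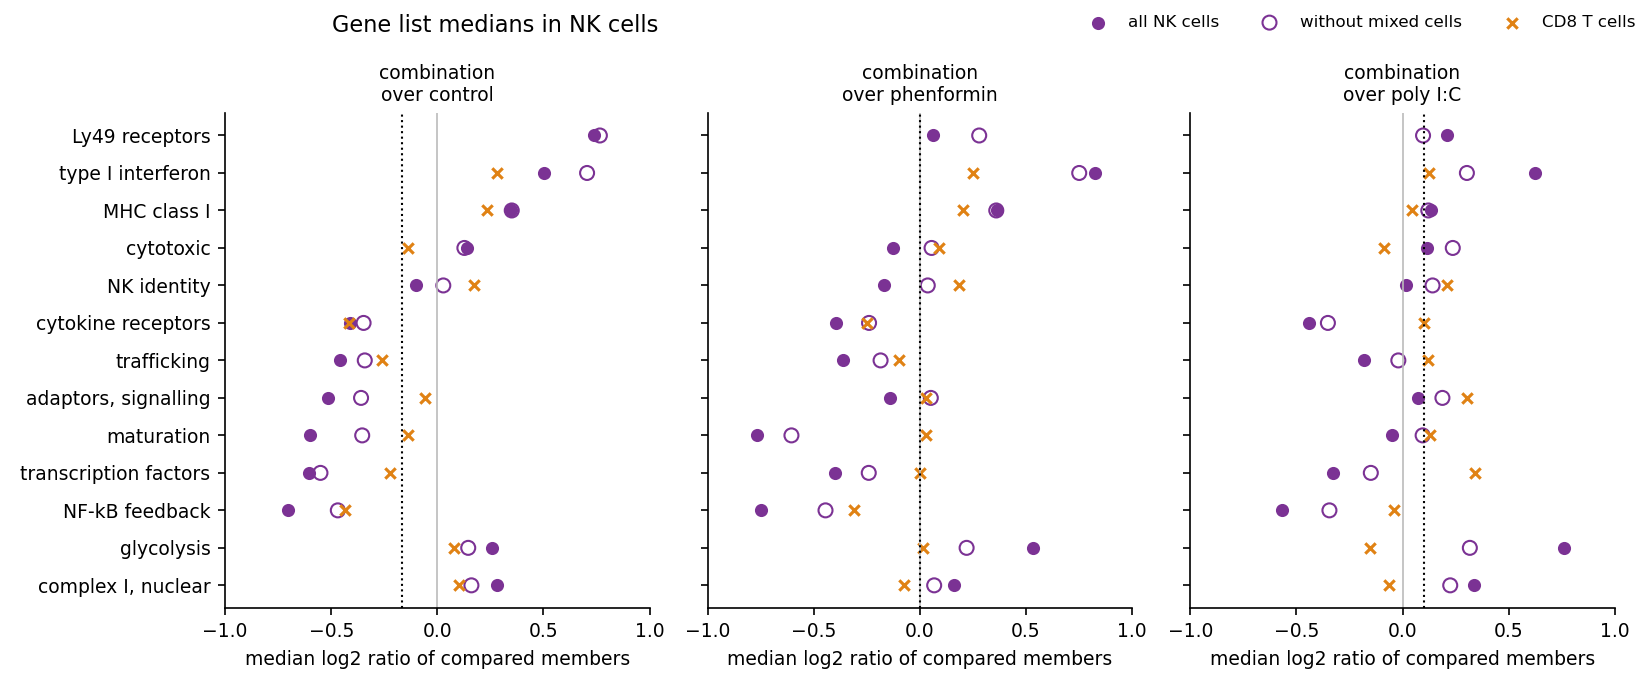
Median log2 ratio of the compared members of 13 gene lists for the combination over control, over phenformin and over poly I:C; filled circles are all NK cells, open circles NK cells without the mixed cells, crosses CD8 T cells, and the dotted line is the median of all compared genes in NK cells. Against control, in all NK cells, the Ly49 median is the highest (0.74) and the NF-kB feedback median the lowest (-0.70). Without mixed cells the transcription factor median is the lowest (-0.55), with NF-kB feedback at -0.47. The glycolysis values against the single treatments shrink without mixed cells.

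In the 2 by 2 layout, the combination beyond the sum of both single treatments was taken as its log2 level minus those of phenformin and of poly I:C plus that of control. For Xcl1 it was 0.56 (0.60 without mixed cells) and for Isg15 1.89, which came to 0.28 without mixed cells. It was -0.80 for Klf2, -2.17 for Il7r, -0.94 for Ccl5, -2.36 for Ifng and -4.85 for Csf2, whose levels in both single treatments rested on 5 and 4 cells. It was -0.41 for Klra7, -0.33 for Spn and -0.08 for Cma1, which came to -0.11, -0.06 and 0.11 without mixed cells. The other compared Ly49 genes had -1.003 (Klra4), -1.08 (Klra8), -0.7043 (Klra1) and -0.1446 (Klra9). Without mixed cells these 4 came to -0.739, -0.7794, -0.6166 and -0.06535. No interval or test belongs to these values.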

How the data were processed

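Single-cell transcriptomes (10x Genomics, 3' counting) of 4 libraries, 1 per treatment, were used as the UMI counts per gene and cell that the authors deposited, which are whole numbers that were not normalized. The submitters' processing notes name Cell Ranger 3.1.0 and the builds mm10 and GRCm38; of alignment settings and annotation release, neither is given in the sources used here. Cells needed 200 or more detected genes and mitochondrial UMIs below 20%, and NK cells were taken by the rule given above; CD8 T cells and B cells were taken by their own transcripts in the same way. No doublet caller was run: the gates on Cd3, macrophage and cycling genes stood in for it, and leaving out mixed cells, and the cell with most UMIs of each gene, were alternatives chosen after seeing the data. Counts were summed over the NK cells of a library and divided by their total (CPM). Ratios have exact conditional intervals, levels exact Poisson and shares exact binomial (Clopper-Pearson) intervals, all at 95% and for counting error only, and a count of 0 allows up to 3 counts. Thinning drew 2000 UMIs per cell and left out shallower cells (8, 2, 10 and 10 NK cells in the combination, with phenformin, with poly I:C and in control). The ratio step was tested on simulated data. The members and the 34 gene lists were chosen with earlier results of these data known. Named genes are the 8 highest and 8 lowest of each of 5 comparisons, up to 4 members of each list with the largest differences, the 5 top and 5 bottom genes of the combination beyond both agents, the NK receptor and granzyme families, and genes named from the lists after their values were seen. Of the listed symbols 6 were absent from the 27998 features, and for 65 symbols shared by features the first was used. Positions are from GENCODE vM21 by Ensembl ID, and promoters from RefSeq (GRCm38.p6). Software was Python 3.11.15, numpy 2.4.6, scipy 1.17.1, pandas 2.3.3, matplotlib 3.10.9, and edgeR 4.0.16 in R 4.3.3 for TMM factors only.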

Additional observations from a re-analysis of the deposited data

Results flagged for a closer look

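For 5 genes the effect of one agent lay in opposite directions depending on whether the other agent was given. With 1 library per treatment these differences were not tested. The value given is the log2 ratio of the combination to a single treatment minus the log2 ratio of the other single treatment to control, which is the same number for both agents. For Ifng it was -2.358: phenformin was lower beside poly I:C and higher alone, and poly I:C was lower beside phenformin and higher alone, with 42.97, 104, 98.3 and 40.9 CPM in the combination, with phenformin, with poly I:C and in control. For Bst2 it was 2.564 and for Ly6a 2.26, where each agent alone was below control and each was higher beside the other. Without mixed cells Bst2 had 118, 43.1, 105 and 70.2 CPM and Ly6a 269.7, 58.4, 162 and 73.5 CPM, so poly I:C alone was then above control. For Gzmc it was -2.22 and for Il7r -2.167, where poly I:C was higher alone and lower beside phenformin. The Gzmc value rested on 12, 6, 9 and 9 cells in the combination, with phenformin, with poly I:C and in control.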

How the results depend on the processing

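No paired analysis was possible because each treatment had 1 library and the replicate numbers are only names. NK shares, at 1.52%, 1.80%, 1.65% and 2.72% in the combination, with phenformin, with poly I:C and in control, became 1.016%, 1.137%, 0.9065% and 1.805% with 3 or more NK UMIs and 1.083%, 1.155%, 1.124% and 1.842% when thinned to 2000 UMIs. Without cells with 3 or more UMIs of 12 genes of other cells they became 1.234% in the combination and 1.345% with poly I:C. Control kept the highest share under these settings, none of which relaxed the Cd3 limit.

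Genes at least 1.5-fold apart numbered 350 for phenformin and 658 for poly I:C against control, 949 for the combination against control, 533 against poly I:C and 699 against phenformin. Of the combination against poly I:C and against phenformin, 339 and 421 were apart with 3 or more NK UMIs, 299 and 413 without cells holding the 12 genes, and 334 and 448 without mixed cells. Against poly I:C, 333 were apart without the 5% of cells with most UMIs. Thinned to 2000 UMIs, poly I:C and the combination against control had 435 and 499, and the combination had 183 against poly I:C and 257 against phenformin. A pseudocount of 20 CPM gave 208 for phenformin against control. A filter of 20 CPM and 10 UMIs gave 1105, 1639, 1847, 1507 and 1766 in the order phenformin, poly I:C and combination against control, then combination against poly I:C and against phenformin, and 10 UMIs with no CPM filter gave 1389, 2002, 2218, 1716 and 1918.

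Log2 ratios of 7 genes and the medians of 2 marker lists of other cells turned their sign or lost their difference under some settings. For poly I:C against control, Bst2 was 0.6012 and Ly6a 0.7614 without cells holding the 12 genes, 0.6078 and 0.9604 without the 5% with most UMIs, 0.5455 and 1.086 without mixed cells, 0.2292 and 0.003833 when thinned, and 0.2529 and 0.1553 as a mean over cells. Ly6a was 0.2873 for phenformin against control without the 5%. Areg was 0.0 in the combination against control and against poly I:C and -0.6362 against phenformin without cells holding the 12 genes, and against phenformin -0.1179 without the 5% and -0.1009 without mixed cells. Ccl4 was 0.06733 in the combination against control without cells holding the 12 genes. Gzmc was -0.8989 against poly I:C with no cycling limit and 1.272 against phenformin without the 5%. Against poly I:C, Nfkbiz was 0.05492 when thinned and Slfn2 7.724e-05 with 3 or more NK UMIs. The dendritic marker median of the combination against control was 0.117 without the 5%, 0.009099 without mixed cells and 0.1011 without the top cell of each gene, and the macrophage median of poly I:C against control was -0.1854 without cells holding the 12 genes. The cause was not tested beyond what the cells left out show. Of the other log2 ratios of named genes, 5672 values moved by at most 1.5-fold and 175 by more. With 98 to 166 NK cells per library, genes under about 30 UMIs have wide intervals, and no value separates treatment from library.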

Other observations

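Genes outside the comparisons above also differed between the libraries. Ms4a6b, a membrane protein of lymphocytes, had 104, 40.3, 87.3 and 23.97 CPM in the combination, with phenformin, with poly I:C and in control, in 40 of 126, 13 of 98, 23 of 109 and 15 of 166 cells, and was 4.34 (2.51 to 7.92) times the control level in the combination and 3.64 (1.96 to 7) times with poly I:C. Dnaja1, a co-chaperone of heat shock protein 70, was higher in both libraries that received poly I:C, at 668, 386, 679.7 and 423 CPM. Of 20 compared heat shock and immediate early genes, 2 were at least 1.5-fold higher and 2 lower in the combination than in control, beside 8.37% and 19.5% of all genes. Gadd45b, a stress-induced regulator of kinase signalling, was highest with phenformin at 80.98, 156, 109 and 73.3 CPM. Lrrc8c, a subunit of volume-regulated anion channels, had 33.05, 107, 35.5 and 67.7 CPM, and the cyclin-dependent kinase gene Cdk14 18.2, 75.8, 19.1 and 52.2 CPM, both lower in the 2 libraries with poly I:C, on 20 and 13 UMIs of Lrrc8c and 11 and 7 of Cdk14 in the combination and with poly I:C.

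Transcripts of the inhibitory checkpoint receptors Lag3 and Tigit were found in few cells. Lag3 was found in 1 of 126, 1 of 98, 2 of 109 and 7 of 166 NK cells, at or below the B cell shares of 1.63%, 2.97%, 3.7% and 5%. Tigit was found in 10.3%, 7.14%, 10.1% and 4.82% of NK cells, with overlapping intervals, and in at most 0.99% of B cells.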
